A study of Mus musculus with 11 samples.

Results

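Memory-phenotype CD4 T cells were compared with naive CD4 T cells in bone marrow chimeras, on 3 arrays for each cell type. The genes described are the autosomal genes with a single symbol in the deposited gene table, 17411 of the 20335 single-symbol genes. The 6 chimera arrays belong to a series of 11, in which unmanipulated mice gave the other 5. The WM IMP group was CD45.1+ TCRβ+ CD4+ CD44hi splenocytes of chimeras made by giving CD45.1+ wild-type marrow to irradiated CD45.2+ MHCII-/- hosts. The MW naive group was CD45.2+ TCRβ+ CD4+ CD44lo splenocytes of the reverse chimeras, in which MHCII-/- marrow went into wild-type hosts. The WT IMP group (2 arrays) and the WT naive group (3 arrays) were sorted with the same CD44 gates, without a CD45 gate, from wild-type spleens. Chimeras were taken 8 weeks after transfer, and the unmanipulated mice were 8 weeks old. All mice were C57BL/6, and sort purity was given as 92% to 99%. The MHC class II genotypes of marrow and host, the CD45 allele and the irradiated host all differ along with the cell type, so their parts in the chimera comparison cannot be told apart. IMP stands for innate memory phenotype, after the title of the series.

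A naive CD4 T cell recirculates through lymphoid organs with homing receptors such as CCR7, and is kept quiescent by factors such as KLF2, LEF1 and TCF7. A memory-phenotype cell carries high CD44, has often lost such receptors and has its cytokine genes ready for use. Innate-like CD4 T cells take on this phenotype without a foreign antigen, and those selected by MHC class II on haematopoietic cells in the thymus are known for the factor PLZF, encoded by Zbtb16, and for rapid release of IL-4.

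Some labels and arrays did not match. All samples carry a female label, but in the 3 WM IMP arrays Xist stood at -6.38, -7.44 and -6.95, against 0.23, 0.61 and 0.04 in the 3 MW naive arrays. The Y-linked gene Ddx3y stood at 5.43, 5.48 and 5.61 in the WM IMP arrays, against -0.04, -0.03 and 0.10 in the MW naive arrays. The WM IMP arrays thus go against their label, and sex is a further difference between the groups; genes on X and Y were set aside for this reason, while its part in the autosomal differences cannot be told apart from that of cell type. For MW naive, one label gives the host as CD45.2+ and the other as CD45.1+. If the first were right, the CD45.2 gate would not separate donor from host cells.

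Each array value is, as the authors set it, a log2 difference from the average over the WT naive arrays, so no value tells how strongly a gene was expressed. Each difference between groups is WM IMP minus MW naive in log2 units with its standard error (SE) from limma, and a gene was called at a Benjamini-Hochberg adjusted p under 0.05 over all genes of the table. The labels number the arrays as biological replicates without saying whether each was 1 mouse or a pool. The median SD of a gene was 0.234 over WM IMP arrays and 0.166 over MW naive arrays, and it was 0.11 over WT IMP and 0.135 over WT naive arrays. The first WM IMP array stood apart from the other 2, with the lowest weight of the 11 arrays (0.229). Spiked hybridization controls lay higher in the WM IMP arrays (1.62 to 3.17) than in the MW naive arrays (1.01 to 1.44). Where a named gene's call was lost or gained with these controls as a covariate, the covariate's adjusted p is given as well. The 5' minus 3' difference of Gapdh was 0.56, -2.71 and -1.69 in WM IMP arrays and -4.22, -3.50 and -1.38 in MW naive arrays. It was -4.23 and -0.27 in WT IMP arrays and 0.02, -0.42 and 0.41 in WT naive arrays. That of actin ran from -2.42 to -0.89 in WM IMP, -1.33 to -0.82 in MW naive and -0.23 to 0.35 in WT naive arrays. It was -1.22 and -0.12 in WT IMP arrays.

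Of the 17411 genes, 3031 (17.4%) were called: 1352 were higher in WM IMP cells than in MW naive cells (7.77%) and 1679 were lower (9.64%). With the arrays quantile normalized anew, 542 were higher and 345 lower. That step was run on values already set against the WT naive mean, and gave 1 distribution to arrays of unlike spread. Their interquartile range ran from 0.16 in the first WT naive array to 0.71 in the first WM IMP array. With the hybridization controls as a covariate 1088 were higher and 776 lower. The 6 chimera arrays alone gave 972 higher and 874 lower. The larger share of lower genes thus did not hold under these settings. The large differences were mostly increases. At 2-fold or more, 1317 genes were called (7.56%), of which 831 were higher (4.77%) and 486 were lower (2.79%). At 4-fold or more the counts were 373 and 76, at 8-fold or more 181 and 14, and at 32-fold or more 26 and 1. Of the 831, 683 averaged at least 1 log2 unit above the WT naive level in WM IMP arrays, and 50 averaged at least 1 unit below it in MW naive arrays. Of the 486, 341 averaged at least 1 unit below the WT naive level in WM IMP arrays, and 32 averaged at least 1 unit above it in MW naive arrays. The difference thus lay mainly in the WM IMP arrays in both directions, with a smaller number of genes away from the WT naive level in the MW naive cells.

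**Figure D1:**
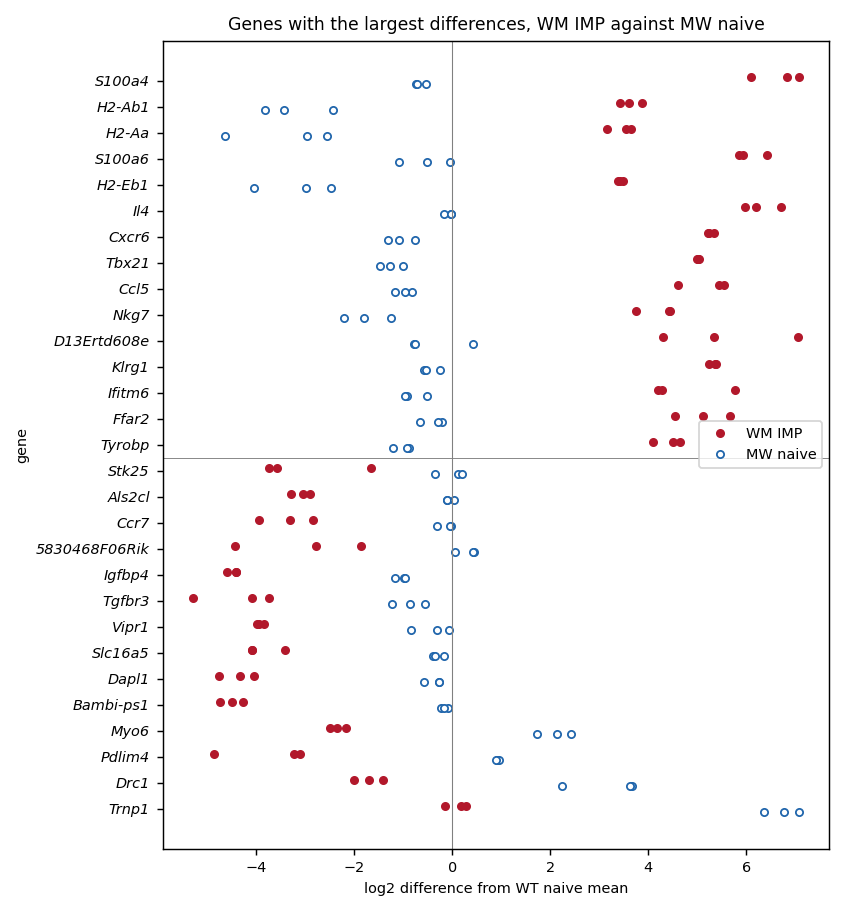
Array values of the 15 called genes with the largest increase and 14 of the 15 with the largest decrease, among genes whose arrays did not overlap between groups (x axis, log2 difference from the WT naive mean; 1 row per gene; filled points are the 3 WM IMP arrays, open points the 3 MW naive arrays). The WM IMP values of the increased genes lie between 3.17 and 7.08, while Trnp1, at the foot of the decreased genes, separates through MW naive values of 6.36 to 7.07.

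H2-Ab1 and H2-Aa, chains of MHC class II, had the largest increases after S100a4. H2-Ab1, the β chain of I-A, stood at 3.61, 3.43 and 3.87 in the WM IMP arrays, against -3.82, -3.43 and -2.44 in the MW naive arrays. H2-Aa, the α chain of I-A, stood at 3.55, 3.17 and 3.64 in the WM IMP arrays, against -4.64, -2.96 and -2.56 in the MW naive arrays. H2-Eb1, the β chain of I-E, stood at 3.43, 3.38 and 3.49 in the WM IMP arrays, against -4.04, -2.98 and -2.47 in the MW naive arrays. For these 3 genes all WM IMP arrays lay well above the WT naive level and all MW naive arrays well below it. The differences were 6.87 ± 0.34 for H2-Ab1, 6.84 ± 0.46 for H2-Aa and 6.59 ± 0.38 for H2-Eb1. Since the marrow of the MW naive chimeras was MHCII-/-, genotype and cell type cannot be told apart here. In unmanipulated wild-type mice, which had no marrow transfer, the WT IMP minus WT naive differences were 3.22, 2.78 and 2.93.

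Other genes of the class II pathway were also higher in the WM IMP arrays. Markers of antigen-presenting cells rose in part in the same arrays, as given below, and their part in the class II values was not tested. Of 13 list members, 10 were higher (7.77% of all genes) and 1 was lower (9.64% of all genes), with a median difference of 2.52 against -0.06 over all genes. Cd74, the invariant chain that escorts class II molecules, stood at 3.17, 2.11 and 2.82 in the WM IMP arrays, against -0.99, -0.92 and -0.17 in the MW naive arrays (difference 3.39 ± 0.45, adjusted p 0.00032). Ciita, the master co-activator of class II genes, stood at 2.05, 3.14 and 2.45 in the WM IMP arrays, against -0.68, -0.43 and 0.31 in the MW naive arrays (2.81 ± 0.35, adjusted p 0.00023). H2-DMa, which loads peptides onto class II molecules, differed by 1.41 ± 0.17. Neither group overlapped the other in these 3 genes, as in 12.5% of all genes in this direction. H2-Ob, a chain of the inhibitor of peptide loading, did not pass the test, at 1.08, 0.23 and 0.87 in the WM IMP arrays and 0.12, -0.24 and 0.14 in the MW naive arrays (adjusted p 0.063). It was called without the second WM IMP array (adjusted p 0.0113), with the replicate block (0.011) and with the 7 arrays without high poly-A controls (0.0275). Rfxap, a subunit of the RFX complex, was the lower member, by -0.43 ± 0.13 (adjusted p 0.048), a call that was lost under 20 of the 27 alternative settings, among them the hybridization covariate (adjusted p 0.276) and leaving out any array but the third WM IMP array and the second WT naive array (adjusted p 0.0617 to 0.125 over the arrays left out).

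Class II promoters are known for a module of an X box, bound by the RFX complex, followed by a Y box, bound by NF-Y, on which CIITA assembles. The 150 bases before the start of 4 class II genes are shown, from RefSeq on GRCm38.p6, because 3 of these genes rose together and the fourth, which did not pass the test over all 11 arrays, has the same letters. The capitals mark the letters GCAAC, which lie within the X box, and the letters TGATTGG, which hold the core of the Y box; both runs and their spacing of 15 to 40 bases were chosen after these promoters were read.
H2-Aa (chr17:34287824-34287973, minus strand): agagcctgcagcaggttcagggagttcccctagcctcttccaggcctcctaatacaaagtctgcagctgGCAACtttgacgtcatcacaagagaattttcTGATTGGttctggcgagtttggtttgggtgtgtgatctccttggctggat
H2-Eb1 (chr17:34305717-34305866, plus strand): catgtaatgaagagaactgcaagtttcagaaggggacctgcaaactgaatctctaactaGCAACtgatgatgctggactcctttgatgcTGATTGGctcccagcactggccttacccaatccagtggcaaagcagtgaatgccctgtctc
H2-Oa (chr17:34092229-34092378, plus strand): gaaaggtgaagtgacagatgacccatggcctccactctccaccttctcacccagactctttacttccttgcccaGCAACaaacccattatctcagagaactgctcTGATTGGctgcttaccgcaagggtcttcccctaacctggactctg
H2-Ob (chr17:34238755-34238904, plus strand): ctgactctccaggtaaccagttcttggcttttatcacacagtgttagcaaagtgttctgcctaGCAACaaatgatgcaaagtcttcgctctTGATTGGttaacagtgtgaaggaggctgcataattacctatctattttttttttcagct
Between the 2 runs lie 26 bases in H2-Aa, 25 in H2-Eb1, 26 in H2-Oa and 23 in H2-Ob. Of the 13 list members, 9 had a promoter in the table, and 5 of them held both runs in this order within 250 bases, read on either strand. The same was true of 0.259% of 27025 genes with a promoter, and TGATTGG alone was found in 8.38% of them. H2-Oa, a partner chain of H2-Ob, differed by 3.16 ± 0.19. A match describes letters and not a site in use.

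**Figure D2:**
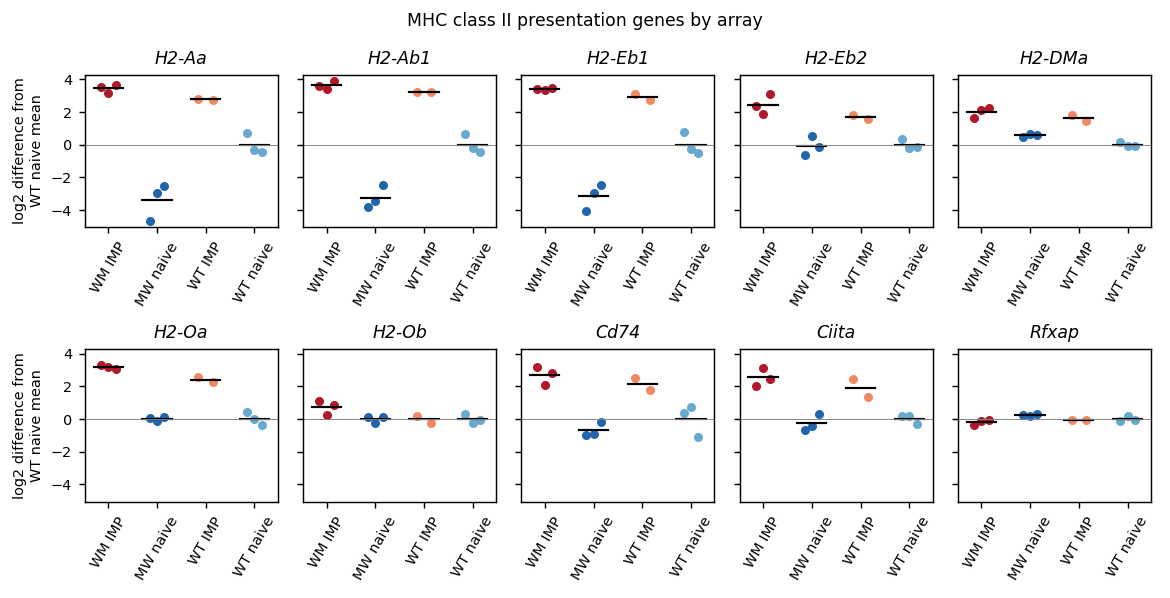
Array values of 10 genes of MHC class II presentation in the 4 groups (y axis, log2 difference from the WT naive mean; 1 panel per gene; each point is 1 array and the bar is the group mean). H2-Aa, H2-Ab1 and H2-Eb1 lie above 3 in WM IMP arrays and below -2 in MW naive arrays, while the MW naive arrays of Ciita lie between -0.68 and 0.31.

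Cd44 was used in the sort and is given as a description. Cd44 stood at 2.22, 2.59 and 2.67 in the WM IMP arrays, against -0.03, -0.31 and -0.62 in the MW naive arrays. Of 12 genes of CD4 T cell identity none was higher and 2 (16.7%) were lower, near the 17.4% of all genes called either way, Cd247 by -1.01 ± 0.16 and Lck by -0.50 ± 0.14. The call of Lck, and with it a count of 2, was lost without any one array other than the second WM IMP array (adjusted p 0.0528 to 0.111), and with the hybridization covariate (0.371). That of Cd247 was lost after quantile normalization (adjusted p 0.111) and in the series matrix by mean of probe sets (-0.504, adjusted p 0.0824). Cd3e, a chain of the T cell receptor complex, differed by 0.11 ± 0.12 and Cd4 by 0.73 ± 0.46, neither of which passed the test.

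The naive programme fell broadly. Of 34 naive and quiescence genes 29 were lower in the WM IMP cells, beside 9.64% of all genes, none was higher, and the median difference was -1.81. This list, like the others, was chosen with earlier results of these data known, so its share is a description and no test. One member was used in the sort; without it 28 of 33 were lower, with a median of -1.78. Lef1, a factor of naive T cells, stood at -3.31, -2.64 and -2.92 in the WM IMP arrays, against -0.21, -0.19 and -0.10 in the MW naive arrays. Ccr7, the lymph node homing receptor, stood at -3.94, -2.84 and -3.31 in the WM IMP arrays, against -0.31, -0.02 and -0.04 in the MW naive arrays. The groups did not overlap in either gene, beside 18.6% of all genes with every WM IMP array below every MW naive array, 12.5% the other way and 31.1% in all. Klf2, which keeps T cells quiescent, fell by 1.55 on the log2 scale (SE 0.19), and Tcf7 fell by 1.53 (SE 0.25). The call of Tcf7 was lost in the series matrix by mean of probe sets (-0.996, adjusted p 0.106). Dapl1, Pdlim4 and Igfbp4 differed by -4.00 ± 0.20, -4.66 ± 0.36 and -3.44 ± 0.13. S1pr1, the receptor for egress from lymphoid organs, was below the WT naive level in both groups, at -1.63, -1.78 and -2.54 in the WM IMP arrays and -2.31, -2.45 and -0.52 in the MW naive arrays, and the groups overlapped (adjusted p 0.79). For Il7r, the IL-7 receptor α chain, the gap came from the naive side: WM IMP arrays stood at -0.05, -0.15 and 0.23, near the WT naive level, against 1.15, 0.96 and 0.94 in MW naive arrays (-1.0 ± 0.15, adjusted p 0.00097).

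Transcription factors of effector and innate-like T cells were mostly higher. Of 27 factors 22 were higher and 1 was lower, beside 7.77% and 9.64% of all genes, with a median difference of 1.77. Zbtb16, which encodes PLZF, stood at 2.64, 2.35 and 3.50 in the WM IMP arrays, against -0.22, -0.08 and -0.40 in the MW naive arrays (3.07 ± 0.25, adjusted p 7.7e-06). Maf, which drives IL-4, IL-10 and IL-21, stood at 4.80, 4.85 and 4.67 in the WM IMP arrays, against -0.37, -0.19 and -0.34 in the MW naive arrays (5.08 ± 0.12, adjusted p 1.6e-09). Neither gene showed overlap between the groups, as in 12.5% of all genes in this direction. Bhlhe40, a factor that restrains IL-10, differed by 4.88 ± 0.19, and Runx2 by 4.38 ± 0.35. Tbx21, the Th1 factor T-bet, differed by 6.27 ± 0.27 while Gata3, the Th2 factor, differed by 0.50 ± 0.10, a call lost with the hybridization covariate (adjusted p 0.0912), with the 6 chimera arrays alone (0.0529), with the 7 arrays without high poly-A controls (0.134), after quantile normalization (0.136) and in the series matrix by probe set (0.0503). Eomes, a T-box factor of memory and cytotoxic cells, was uneven in the WM IMP arrays, at 0.23, -0.94 and 1.43, against -1.59, -1.70 and -1.49 in the MW naive arrays (1.83 ± 0.43, adjusted p 0.015, 0.0528 without the second MW naive array and 0.0709 with the hybridization covariate). Bcl6, the follicular helper factor, differed by 1.40 ± 0.22. Tox2 stood at 2.78, 4.36 and 3.79 in the WM IMP arrays, against -0.28, -0.25 and -0.21 in the MW naive arrays.

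The cytokine genes were split. Of 21 effector cytokines 10 were higher (7.77% of all genes) and 1 was lower, none without the first or without the second MW naive array, with a median of 1.08. Il4 stood at 6.72, 5.97 and 6.19 in the WM IMP arrays, against -0.17, -0.03 and -0.03 in the MW naive arrays (6.37 ± 0.20, adjusted p 1e-08). Il13 and Il5, which share the Th2 cytokine locus with it, did not pass the test. Il13 stood at -0.02, 0.21 and 0.08 in the WM IMP arrays and 0.31, -0.26 and -0.19 in the MW naive arrays (adjusted p 0.66). Il5 differed by -0.10 ± 0.12 (adjusted p 0.64). Ifng differed by 3.70 ± 0.20, and Il17a by 0.31 ± 0.16 (adjusted p 0.24, and 0.0435 without the second WM IMP array). Penk, the precursor of enkephalin peptides, stood at 4.69, 4.87 and 4.87 in the WM IMP arrays, against -0.28, -1.28 and -0.01 in the MW naive arrays (5.33 ± 0.29). Tnfsf11, which encodes RANKL, differed by 4.27 ± 0.16, and Ebi3, a subunit shared by IL-27 and IL-35, by 3.89 ± 0.27. Il21 was uneven, at 0.19, 2.34 and 1.41 in the WM IMP arrays, against -0.19, -0.32 and -0.37 in the MW naive arrays, and its call (adjusted p 0.024) was lost under 10 of the 27 alternative settings, among them leaving out any MW naive array or the second or the third WM IMP array (adjusted p 0.0506 to 0.0701).

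Of 10 chemokines 7 were higher, beside 7.77% of all genes, and none was lower. Ccl5, an inflammatory chemokine, differed by 6.18 ± 0.35, and Xcl1, a ligand for cross-presenting dendritic cells, stood at 4.56, 3.36 and 4.24 in the WM IMP arrays, against -0.24, -0.55 and -0.08 in the MW naive arrays (4.34 ± 0.30). Among 22 chemokine receptors and homing genes 9 were higher and 5 lower, beside 7.77% and 9.64% of all genes. Ccr7 was among the lower, and 1 of the 5 was used in the sort. Cxcr6, the receptor for CXCL16, stood at 5.34, 5.22 and 5.25 in the WM IMP arrays, against -1.08, -0.76 and -1.30 in the MW naive arrays (6.32 ± 0.25). Ccr9, a receptor for homing to small intestine and thymus, stood at 3.47, 3.30 and 3.44 in the WM IMP arrays, against 0.64, 0.06 and -0.01 in the MW naive arrays (3.17 ± 0.17). Gpr15, a receptor for homing to the colon, differed by 3.81 ± 0.31, Cxcr5, the follicle homing receptor, by 3.32 ± 0.34, and Ccr6 by 3.29 ± 0.28. In these 4 receptors and Cxcr6 the groups did not overlap, as in 12.5% of all genes in this direction.

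Of 16 integrin genes 8 were higher, beside 7.77% of all genes, and 1 was lower; without the second MW naive array 5 were higher, as with the 7 arrays without high poly-A controls. Itgae, the αE chain that binds E-cadherin on epithelium, stood at 4.63, 4.40 and 5.08 in the WM IMP arrays, against -0.50, -0.36 and -0.50 in the MW naive arrays (5.16 ± 0.21). Itgb8, which with αV activates TGF-β, differed by 3.68 ± 0.24 and Itgax by 4.81 ± 0.22. Itga6, the α6 laminin receptor chain, was the lower one, at -1.98, -2.29 and -1.99 in the WM IMP arrays, against -0.08, 0.18 and -0.36 in the MW naive arrays (-2.0 ± 0.17). Of 28 cytokine receptor genes 15 were higher and 5 lower, beside 7.77% and 9.64% of all genes. Il12rb1 (3.25 ± 0.22), Il2rb (3.18 ± 0.22) and Il1rl1, the IL-33 receptor (3.39 ± 0.27), were among the largest increases. Tgfbr3, the TGF-β co-receptor betaglycan, stood at -5.29, -3.73 and -4.09 in the WM IMP arrays, against -0.86, -1.22 and -0.55 in the MW naive arrays (-3.49 ± 0.37).

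Receptors shared with natural killer cells and cytotoxic granule genes rose in part. Of 15 NK receptor and adaptor genes 8 were higher and none lower, and of 16 cytotoxic granule genes 10 were higher and none lower (1 lower without the first WM IMP array), beside 7.77% of all genes higher and 9.64% lower. Klrg1, a receptor for cadherins, stood at 5.36, 5.24 and 5.39 in the WM IMP arrays, against -0.58, -0.54 and -0.24 in the MW naive arrays (5.78 ± 0.23). Tyrobp, the signalling adaptor DAP12, stood at 4.09, 4.66 and 4.51 in the WM IMP arrays, against -0.88, -1.21 and -0.92 in the MW naive arrays (5.42 ± 0.26), and Fcer1g, a related adaptor, differed by 4.76 ± 0.31. Gzmb, the protease granzyme B, stood at 4.92, 3.06 and 4.28 in the WM IMP arrays, against -0.18, -0.97 and -1.44 in the MW naive arrays (4.95 ± 0.44). Prf1, the pore-forming perforin that delivers granzymes, did not pass the test over all 11 arrays, at -0.49, -2.63 and -2.46 in the WM IMP arrays and -0.95, -0.98 and 0.14 in the MW naive arrays (adjusted p 0.11). Without the first WM IMP array it was lower, by -1.95 (adjusted p 0.000822), as it was with the hybridization covariate (adjusted p 0.00204), with array weights (0.0119) and with the 5' minus 3' difference of Gapdh as a covariate, chosen after seeing the data (0.0168). Ncr1, a defining receptor of natural killer cells, differed by 0.03 ± 0.15. Cd8a, which can mark CD8 T cells or dendritic cells, stood at 2.45, 0.44 and 1.60 in the WM IMP arrays, against -0.59, -0.89 and -0.53 in the MW naive arrays (2.17 ± 0.39), a call lost with the hybridization covariate (1.60, adjusted p 0.0758) and after quantile normalization (adjusted p 0.112), while Cd8b1 overlapped (adjusted p 0.41); the part of CD8 T cells in the cytotoxic genes was not tested.

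Inhibitory and costimulatory receptors also rose in part. Of 14 inhibitory receptors 8 were higher and 1 was lower, with a median of 1.55, and of 18 costimulatory genes other than the sorted Cd44 9 were higher and none lower, beside 7.77% of all genes higher and 9.64% lower. Leaving out 1 array, the first or second WM IMP or the second or the third WT naive array, gave 1 lower costimulatory gene. Havcr2, which encodes TIM-3, stood at 3.63, 3.25 and 4.74 in the WM IMP arrays, against -0.18, 0.14 and -0.61 in the MW naive arrays (4.09 ± 0.33). Cd160 differed by 4.06 ± 0.25, Pdcd1, which encodes PD-1, by 3.27 ± 0.44 and Lag3 by 3.13 ± 0.35. Pdcd1 was the most uneven of the 4, at 1.16, 3.50 and 2.20 in the WM IMP arrays, against -1.22, -1.07 and -0.65 in the MW naive arrays. Cd83 (4.40 ± 0.26), Tnfrsf9 (3.14 ± 0.20) and Tnfrsf4, which encodes OX40 (3.09 ± 0.16), led the costimulatory genes. Cd28 itself differed by -0.06 ± 0.16 and did not pass the test.

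Genes linked to several helper subsets rose at once, where 7.77% of all genes were higher and 9.64% were lower. Of 21 regulatory T cell genes 20 were higher and 1 was lower, with a median of 3.04; Foxp3 is X-linked and is not covered, and 16 of the list's members stand in another list too. Il2rb and Socs2 (3.04 ± 0.19) are members of it. Of 13 Th17 and innate lymphoid genes 11 were higher, with a median of 2.17: Tmem176a differed by 4.03 ± 0.25 and Ahr, the aryl hydrocarbon receptor, stood at 3.59, 3.39 and 3.90 in the WM IMP arrays, against 0.47, -0.21 and -0.13 in the MW naive arrays. Of 16 Th2 genes 8 were higher and 1 was lower. Il17rb, the IL-25 receptor, stood at 5.07, 4.93 and 4.79 in the WM IMP arrays, against 0.80, -0.59 and 0.47 in the MW naive arrays (4.70 ± 0.30), and Plac8 stood at 3.52, 3.54 and 3.52 in the WM IMP arrays, against -0.61, -0.57 and -0.73 in the MW naive arrays (4.16 ± 0.20). Of 19 follicular helper genes 10 were higher and 2 lower. Sostdc1, a secreted BMP and WNT antagonist, varied among the WM IMP arrays, at 2.92, 6.05 and 4.18, against -0.01, -0.17 and 0.31 in the MW naive arrays (4.34 ± 0.58).

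**Figure D3:**
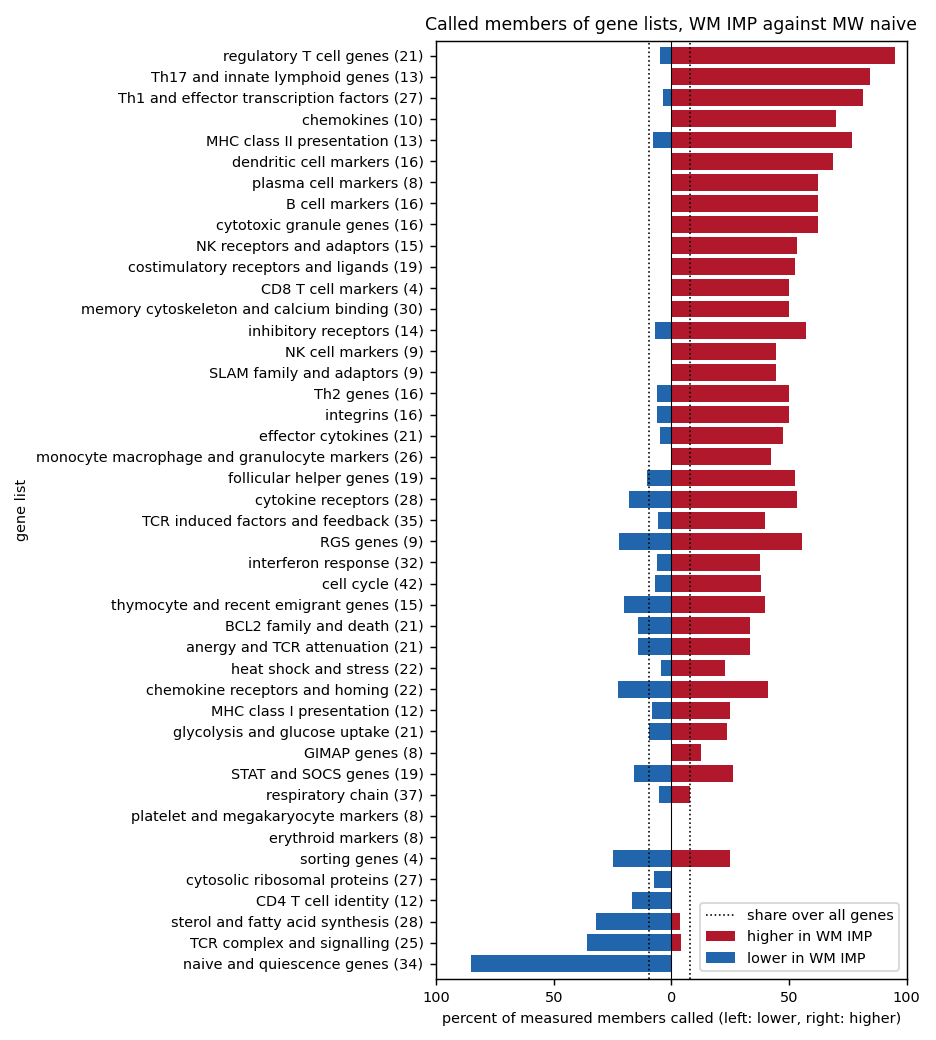
Percent of measured members called higher (to the right) and lower (to the left) in WM IMP cells than in MW naive cells, for the 44 gene lists (y axis; the number of measured members is in brackets). Dotted lines mark the shares over all 17411 genes, 7.77% higher and 9.64% lower; the naive list reaches far to the left, and the regulatory, Th17 and effector factor lists far to the right.

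Calcium-binding and cytoskeletal genes of memory cells gave the largest single increase. Of 30 such genes 15 were higher, beside 7.77% of all genes, and none was lower (1 without the first WM IMP array). S100a4, a calcium-binding protein of motile cells, stood at 6.10, 6.83 and 7.08 in the WM IMP arrays, against -0.73, -0.54 and -0.72 in the MW naive arrays (7.34 ± 0.32, adjusted p 7.8e-08). S100a6, its relative, stood at 5.85, 5.94 and 6.42 in the WM IMP arrays, against -0.04, -1.09 and -0.51 in the MW naive arrays (6.62 ± 0.28). Lgals3, a galactose-binding lectin, differed by 4.11 ± 0.28 and Myo1f, a myosin of leukocytes, by 3.97 ± 0.20. S100a13 differed by 0.50 ± 0.25 (adjusted p 0.23), and was called without the first WM IMP array (0.80, adjusted p 0.0166).

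Some genes of T cell receptor signalling were lower, while some genes induced by the receptor were higher. Of 25 genes of the receptor complex and its signalling chain 1 was higher and 9 were lower, beside 7.77% and 9.64% of all genes, with a median of -0.19. Prkcq, the kinase PKCθ, stood at -1.31, -1.37 and -1.46 in the WM IMP arrays, against -0.32, -0.14 and -0.05 in the MW naive arrays (-1.21 ± 0.15). Tec, a kinase below the receptor, separated partly from the naive side, at -1.05, -0.39 and -0.51 in the WM IMP arrays, against 1.54, 1.75 and 1.63 in the MW naive arrays (-2.29 ± 0.20). Of 35 induced factors and feedback genes 14 were higher and 2 lower; without the first MW naive array 9 were higher, and 8 with the 7 arrays without high poly-A controls. Egr2, a factor induced by calcium signals, stood at 1.02, 1.10 and 1.29 in the WM IMP arrays, against -1.01, -1.14 and -1.01 in the MW naive arrays (2.19 ± 0.13). Nr4a1, an early reporter of receptor signalling, was at the WT naive level in the WM IMP arrays, at 0.00, -0.12 and -0.07, and below it in the MW naive arrays, at -1.37, -1.48 and -0.98 (1.21 ± 0.17). Egr1 differed by 0.63 ± 0.16, a call lost without the third WM IMP array or the first or second MW naive array (adjusted p 0.0508 to 0.0756). In the 21 anergy and attenuation genes 7 were higher and 3 lower, and the ubiquitin ligase gene Cblb differed by -0.29 ± 0.15, which passed the test only without the third MW naive array (adjusted p 0.0342).

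Proliferation genes rose in part. Of 42 cell cycle genes 16 were higher and 3 lower (5 lower without the second WM IMP array), beside 7.77% and 9.64% of all genes, with a median of 0.24. Mki67, the proliferation antigen Ki-67, stood at 3.12, 2.97 and 2.67 in the WM IMP arrays, against -1.15, -1.39 and -0.41 in the MW naive arrays (3.90 ± 0.29). Ccnd1, a G1 cyclin, differed by 4.59 ± 0.27, Rrm2, a subunit of ribonucleotide reductase, by 2.92 ± 0.20 and Ccnb2 by 2.16 ± 0.21. The replication helicase genes Mcm2 to Mcm6 gave no called increase: Mcm2 differed by -0.45 ± 0.14, called as lower without the second WM IMP array (adjusted p 0.0147), and Mcm6 by 0.23 ± 0.14. Among 32 interferon response genes 12 were higher and 2 lower (1 without the third WM IMP, the first MW naive or the first WT naive array), and the largest increases were the antiviral membrane proteins Ifitm3 (5.07 ± 0.26), Ifitm2 (4.78 ± 0.27) and Ifitm1 (3.88 ± 0.48). Irf7, a factor of the same response, differed by 0.12 ± 0.23 and did not pass the test.

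Among metabolic lists, that of sterol synthesis had most lower genes. Of 28 sterol and fatty acid synthesis genes 9 were lower, beside 9.64% of all genes, and 1 was higher, with a median of -0.60. Sqle, squalene epoxidase, stood at -2.46, -0.79 and -0.90 in the WM IMP arrays, against 0.70, 0.31 and 0.66 in the MW naive arrays (-1.94 ± 0.36, and -1.03 with an adjusted p of 0.093 with the hybridization covariate), so the first WM IMP array was the lowest. The number of lower genes was 7 without that array, 14 without the second WM IMP array and 1 with the hybridization controls as a covariate. Of 21 glycolysis genes 5 were higher and 2 lower, beside 7.77% and 9.64% of all genes. The higher count was 2 without the second WM IMP or the second MW naive array, 3 without the third WM IMP, the first or the third MW naive or the third WT naive array, and 1 with the 7 low poly-A arrays. The lower count was 1 without any one of 7 arrays, which were all but the second and the third WM IMP, the third MW naive and the second WT naive array. Pdk1 encodes a mitochondrial kinase that inhibits pyruvate dehydrogenase. It stood at -1.77, -1.71 and -1.73 in the WM IMP arrays, against 0.70, 0.54 and 0.04 in the MW naive arrays (-2.16 ± 0.17). Of 37 respiratory chain genes 3 were higher and 2 lower (13.5%), and of 27 ribosomal protein genes none was higher and 2 were lower (7.41%), beside 17.4% of all genes. Leaving out 1 array at a time gave 0 to 4 higher and 1 to 4 lower respiratory chain genes, with 8 of the 11 arrays moving the higher count and 9 the lower count by over 1.5 times, and 1 to 3 lower ribosomal protein genes, with 1 without the first or the second MW naive array. Among 21 death genes 7 were higher and 3 lower (47.6% called). The inflammatory caspase gene Casp1 stood at 4.85, 4.69 and 4.58 in the WM IMP arrays, against 0.95, 0.84 and 0.61 in the MW naive arrays (3.91 ± 0.14), and Casp4 and Pmaip1, which encodes NOXA, differed by 4.42 ± 0.24 and 3.71 ± 0.25.

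Markers of antigen-presenting cells were in part higher in the WM IMP cells too. Of 16 B cell markers 10 were higher and none lower, beside 7.77% and 9.64% of all genes, and their median over the list was 2.73, 1.05 and 0.78 in the WM IMP arrays, against -0.53, -0.18 and 0.10 in the MW naive arrays. Ms4a1, which encodes CD20, stood at 2.69, 0.85 and 1.13 in the WM IMP arrays, against -1.04, -0.59 and -0.16 in the MW naive arrays (2.15 ± 0.45, and 1.26 with an adjusted p of 0.171 with the hybridization covariate). Without the first WM IMP array 10 B cell markers were higher, and with the hybridization controls as a covariate 2 were. Of 16 dendritic cell markers 11 were higher and none lower, with medians of 1.88, 2.97 and 2.11 in the WM IMP arrays, against -0.12, -0.07 and -0.09 in the MW naive arrays. Ccr9 and Itgax, given above with the homing receptors and the integrins, are among these 11. The 2 WT IMP arrays had dendritic cell medians of 2.77 and 3.06 and B cell medians of 0.59 and -0.25. Siglech, a receptor of plasmacytoid dendritic cells, stood at 2.27, 4.92 and 3.11 in the WM IMP arrays, against -0.13, -0.46 and -0.34 in the MW naive arrays (3.74 ± 0.51), highest in the second array. Of 26 monocyte, macrophage and granulocyte markers 11 were higher and none lower; Lyz2 differed by 2.44 ± 0.23 and Csf1r by 3.08 ± 0.23, while Cd14 differed by 0.18 ± 0.17. Of 9 NK cell markers 4 were higher (2 without the second MW naive array) and none lower (1 without the first WM IMP array), and of 8 erythroid and 8 platelet markers none was called (1 platelet marker without the first WM IMP array). Arrays of bulk RNA cannot tell a few such cells from RNA of the T cells themselves, and the values hold no level that would show a marker as absent; the part of these markers in the class II and adaptor genes was not tested.

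**Figure D4:**
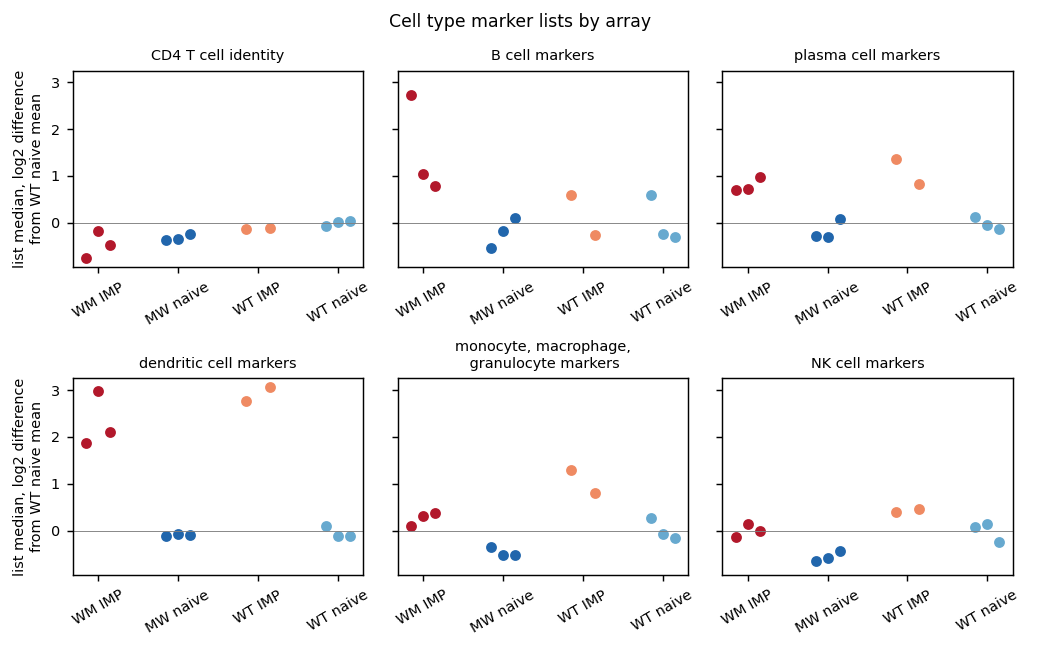
Median of each cell type marker list in each array (y axis, log2 difference from the WT naive mean; x axis, the 4 groups; each point is 1 array). The B cell median is highest in the first WM IMP array, at 2.73, while the dendritic cell medians of the 3 WM IMP arrays lie between 1.88 and 2.97 and the CD4 identity medians of WM IMP and MW naive arrays overlap.

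Among the genes that fell most, some stood above the WT naive level in the MW naive cells. Trnp1, a nuclear protein known from neural progenitors, stood at 0.29, 0.18 and -0.14 in the WM IMP arrays, against 7.07, 6.78 and 6.36 in the MW naive arrays (-6.63 ± 0.19). The WM IMP arrays were thus at the WT naive level and the MW naive arrays far above it; the 2 WT IMP arrays stood at 0.02 and 0.06. Myo6, a myosin that moves toward minus ends of actin filaments, separated on both sides, at -2.36, -2.17 and -2.49 in the WM IMP arrays, against 2.43, 2.15 and 1.73 in the MW naive arrays (-4.44 ± 0.22). For Bambi-ps1 the change lay in the WM IMP arrays, at -4.74, -4.27 and -4.50, against -0.24, -0.09 and -0.16 in the MW naive arrays. Others among the 15 largest decreases were Drc1, Slc16a5, Vipr1, 5830468F06Rik, Als2cl and Stk25, and the 15 differences lay between -6.63 and -2.98.

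The difference between memory-phenotype and naive cells in chimeras was then set beside that between WT IMP and WT naive cells of unmanipulated mice. Signal of sex-linked genes, class II genotype, the CD45 gate and the host also differ within the chimera contrast, but not within the other. Their parts in a gap between the contrasts cannot be told apart. Of the 17411 genes 1578 (9.06%) were called in the WT IMP minus WT naive contrast, 1055 higher (6.06%) and 523 lower (3%). Of the 3031 genes called in chimeras, 1207 (39.8%) were called in the same direction in unmanipulated mice, which is 76.5% of the 1578, and 2 were called in opposite directions. The 2 contrasts share no array, but every array is expressed against the WT naive mean. The test of the difference between the contrasts called 19 genes (0.109%), while 1501 passed an unadjusted p under 0.05; this interaction rests on 2 WT IMP arrays.

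Of the 19 genes 11 had a more positive difference in chimeras. Ctse, an endosomal aspartic protease of antigen presentation, stood at 3.50, 4.02 and 3.86 in the WM IMP arrays and 1.35, 1.11 and 0.54 in the MW naive arrays, against -0.29 and 0.35 in the WT IMP arrays. Its difference was 2.80 in chimeras and 0.03 in unmanipulated mice, a gap of 2.77 ± 0.36 (adjusted p 0.0177). Pik3ap1, an adaptor that links receptors to PI3 kinase, stood at 4.63, 4.44 and 4.47 in the WM IMP arrays and -0.04, -0.18 and -0.01 in the MW naive arrays, against 2.35 and 1.90 in the WT IMP arrays (2.47 ± 0.21, adjusted p 0.000421). For Pik3ap1 the MW naive arrays stood at the WT naive level, whereas for Ctse they stood above it. For Itgae the gap was 2.51 ± 0.31 (adjusted p 0.0112). Ifitm3 stood at 2.74, 2.57 and 3.55 in the WM IMP arrays and -1.84, -2.18 and -2.32 in the MW naive arrays, against 2.35 and 2.05 in the WT IMP arrays (2.86 ± 0.40, adjusted p 0.025), so most of its gap lay in low MW naive values. The same held for Ptger2, a receptor for prostaglandin E2, at 2.42, 2.72 and 2.83 in the WM IMP arrays and -1.66, -2.39 and -1.50 in the MW naive arrays, against 2.64 and 2.39 in the WT IMP arrays. Of the class II genes H2-Ab1 and H2-Eb1 passed this test, with gaps of 3.65 ± 0.51 and 3.66 ± 0.58.

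In the other 8 genes the difference was more negative in chimeras, led by Trnp1 (-6.67 ± 0.28, adjusted p 8.3e-07) and Myo6 (-2.91 ± 0.32). Ppfia4, a liprin scaffold protein, stood at -0.22, 0.02 and 0.01 in the WM IMP arrays and -0.02, -0.31 and 0.47 in the MW naive arrays, against 2.67 and 2.22 in the WT IMP arrays (-2.56 ± 0.29, adjusted p 0.0062). Cdh5, the cadherin of endothelial junctions, behaved alike, at -0.23, 0.30 and 0.45 in the WM IMP arrays and -0.14, 0.46 and 0.30 in the MW naive arrays, against 1.96 and 2.11 in the WT IMP arrays (-2.07 ± 0.29). In these 2 genes the WM IMP and MW naive arrays overlapped, and both WT IMP arrays lay above all of them. Nek6, a mitotic kinase, stood at 0.40, 0.77 and 0.45 in the WM IMP arrays, against -0.08, -0.11 and -0.09 in the MW naive arrays, while its difference in unmanipulated mice was 2.02. Cdk5rap1 and Cyp2s1 were raised in MW naive arrays, to between 1.53 and 1.70 and to between 1.24 and 1.44, and stood below 0 in all WM IMP arrays. Trnp1 was called by this test under all 25 settings run, Pik3ap1 under 23, and Igfbp4, Ppfia4 and Myo6 under 21 each. H2-Eb1 was called under 7 of 25 and Plbd1 under 5. Without the second WM IMP array 83 genes were called, without the first 32, without either of the 2 WT IMP arrays 4, and without the second MW naive array or any 1 WT naive array 7 to 9.

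**Figure D5:**
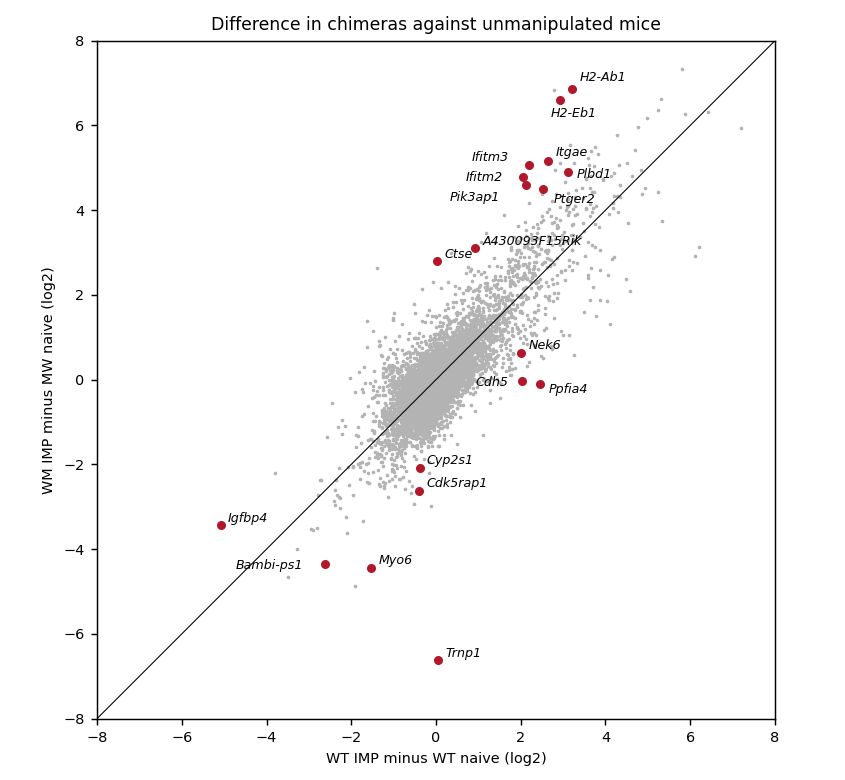
Difference in chimeras (y axis, WM IMP minus MW naive, log2) against the difference in unmanipulated mice (x axis, WT IMP minus WT naive, log2) for 17411 autosomal genes; each grey point is 1 gene and the 19 genes of the interaction test are named. The line marks equal differences; Trnp1 lies at -6.63 and 0.04, and H2-Ab1 lies at 6.87 and 3.22.

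Because CD45 allele and class II genotype differ between the groups, the neighbours of both loci were counted. Among the 20 measured genes on each side of Ptprc, which encodes CD45 on chromosome 1, none was higher and 4 of 40 (10%) were lower: Lad1, Kif21b, Camsap2 and Zfp281. The call of Kif21b was lost without the first or the third MW naive array (adjusted p 0.0596 and 0.0664) and with the hybridization covariate (0.0531). Ptprc itself differed by 0.25 ± 0.11 and did not pass the test. Around H2-Ab1 on chromosome 17, 7 of 40 were higher and 5 lower (30%), beside 17.4% of all genes. The higher ones were H2-Oa, H2-DMa, H2-Aa, H2-Eb1, H2-Eb2, BC051142 and Prrt1, and the lower ones were Wdr46, B3galt4, Col11a2, Btnl2 and Ager. The H2 genes among the higher ones belong to the class II list given above, so the 30% counts them again. The call of BC051142 was lost without the first or the third WM IMP array or the second or the third MW naive array (adjusted p 0.0643 to 0.0915). With the hybridization covariate the calls of BC051142, Prrt1 and Wdr46 were lost (adjusted p 0.315, 0.0675 and 0.108). By chromosome the called share lay between 14.9% on chromosome 18 and 20.6% on chromosome 19.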

How the data were processed

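Each of the 11 samples, RNA of CD4 T cells sorted as described above, had its own Affymetrix 1-colour array. The deposited gene table holds log2 values, computed by RMA per the submitters' processing notes, quantile normalized per the table's own name, and set by the authors as differences from the WT naive mean. That the base is 2 is inferred from the RMA scale and the values. The deposited series matrix, whose log2 values per probe set come from the same arrays, served as an alternative. An array's own matrix column correlated with it at 0.9537 or more over 10846 single-probe-set genes, against at most 0.883 with another array. Symbols were updated through the RefSeq gene table for GRCm38.p6 by Entrez ID (17879 rows), symbol (142) or synonym (110). Left out were 5684 rows with no symbol, 1712 with several, 2273 of no known chromosome and 651 X or Y genes. Rows of 1 symbol were averaged.

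limma 3.58.1 in R 4.3.3 fitted the 4 group means over 11 arrays with 7 residual degrees of freedom, with empirical Bayes and Benjamini-Hochberg adjustment over 20335 genes. The 3 contrasts were WM IMP minus MW naive, WT IMP minus WT naive and the interaction between them. Tables and plots were made with Python 3.11.15, pandas 2.3.3, numpy 2.4.6 and matplotlib 3.10.9. On simulated data over 20335 genes, the chimera test recovered 11.6% of genes changed by 0.5 log2 units, 68.8% at 1 and 95.8% at 2. For the interaction the shares were 0.4%, 29.4% and 78.6%. Unchanged genes made up 6.1% of the calls of the chimera test and 5.2% of those of the interaction. Each gene was simulated with the same spread in every group, whereas the real WM IMP arrays varied more than the others. These shares may therefore not hold for the real arrays. The number of arrays limits precision, and p-values measure only the spread between these arrays, which may be technical.

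Genes, members and 44 lists were chosen with earlier results of these data known. The named genes were the 15 called genes with the greatest difference in each direction and no overlap of arrays, up to 4 called members of each list, up to 8 genes of the interaction in each direction, and a fixed set of 40 marker and regulator genes. Genes named as interaction calls beyond these, members that did not pass, neighbours of Ptprc and H2-Ab1 and the genes Ager, B3galt4, BC051142, Btnl2, Camsap2, Cd14, Cd28, Cd8b1, Col11a2, H2-Eb2, H2-Oa, Il13, Il5, Irf7, Kif21b, Lad1, Mcm2, Mcm6, Plbd1, Prf1, Prrt1, Ptger2, Rfxap, S100a13, S1pr1, Wdr46 and Zfp281 were chosen after their values were seen. Some genes and 1 further gate of the sort are not reported here.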

Additional observations from a re-analysis of the deposited data

Results flagged for a closer look

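For 19 genes the difference between memory-phenotype and naive cells was itself different in chimeras and in unmanipulated mice by limma's interaction test. The gap, chimera minus unmanipulated in log2 units, was positive for H2-Eb1 (3.66), H2-Ab1 (3.65), Ifitm3 (2.86), Ctse (2.77), Ifitm2 (2.72), Itgae (2.51), Pik3ap1 (2.47), A430093F15Rik (2.18), Ptger2 (2.0), Plbd1 (1.78) and Igfbp4 (1.64). It was negative for Nek6 (-1.38), Cyp2s1 (-1.70), Bambi-ps1 (-1.73), Cdh5 (-2.07), Cdk5rap1 (-2.23), Ppfia4 (-2.56), Myo6 (-2.91) and Trnp1 (-6.67). Igfbp4 was lower in memory-phenotype cells of both kinds of mice, and its gap is positive because the decrease was smaller in chimeras.

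Outside the autosomal comparison, 4 Y-linked genes gave signal in WM IMP arrays above that of the MW naive arrays, although all samples carry a female label. The WM IMP minus MW naive difference was 5.50 for Ddx3y, 4.75 for Eif2s3y, 3.55 for Kdm5d and 1.11 for Uty. The WT IMP and WT naive arrays of these 4 genes stayed between -0.19 and 0.28.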

How the results depend on the processing

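Of 4158 comparisons of 154 named genes with 27 alternatives, 3978 kept direction and call, 133 kept direction and lost the call, 13 gained it and 34 turned direction. Of the 134 called genes, 97 kept their call under all 27 alternatives. The 3031 genes called in chimeras became 1846 with the 6 chimera arrays alone, 1434 with the 7 arrays without high poly-A controls, 1864 with the hybridization controls as a covariate, 887 after quantile normalization and 1683 at an adjusted p under 0.01. In the series matrix by mean of probe sets, 3028 of the 3031 kept their sign and 2262 (74.6%) were called with it. Among the named genes Cd247, Jak1, Kif21b, Lck, Prrt1 and Tcf7 lost their call there. The 1317 calls of at least 2-fold became 609 after quantile normalization, which was run on values already set against the WT naive mean. The share of calls that were higher was 44.6%, and the split was 972 higher and 874 lower with the 6 arrays, 825 and 609 with the 7 arrays, 1088 and 776 with the hybridization covariate, 542 and 345 after quantile normalization and 915 and 768 at the stricter threshold. The 19 interaction calls became 6 with the 7 arrays, 10 with the hybridization covariate, 78 with array weights, 7 in the series matrix by mean of probe sets and 5 at the stricter threshold. They became 2 with the 5' minus 3' difference of Gapdh as a covariate, an alternative chosen after seeing the data, as was that of actin. With the replicate number as a block, 2615 genes were called in chimeras and 10 by the interaction; the numbers share no stated source, and same-numbered WM IMP and MW naive arrays deviated with correlations of -0.067, -0.017 and -0.287. Leaving out each array in turn gave 2152 to 3117 calls, 1221 to 1473 of at least 2-fold, and 4 to 83 interaction calls. Turned directions concerned 11 genes that had not passed the test in chimeras. With the hybridization covariate Cd28 stood at 0.282, Cd4 at -0.282, Cd8b1 at -0.307, Cdh5 at 0.305, Il5 at 0.0653 and Irf7 at -0.294. After quantile normalization Cblb stood at 0.0022, Cd28 at 0.0169 and S1pr1 at 0.341. With the 7 arrays Irf7 stood at -0.0031, Ncr1 at -0.0216, Ppfia4 at 0.0584 and S1pr1 at 0.295. With the actin covariate Cd14 stood at -0.0069, Ncr1 at -0.114 and S1pr1 at 0.158. With array weights Cdh5 stood at 0.0576 and Ppfia4 at 0.058. Centring gave Cdh5 0.0102, and the series matrix gave it 0.0248 by mean of probe sets and 0.0709 by single probe sets, which gave Ppfia4 0.209. Leaving out 1 array gave differences of -0.137 to 0.0477 for Cd28, -0.205 to 0.168 for Cdh5, -0.0817 to 0.356 for Irf7, -0.0563 to 0.13 for Ncr1, -0.286 to 0.101 for Ppfia4 and -0.567 to 0.395 for S1pr1. The cause was not tested for any of these, other than fewer arrays or a stricter threshold. Signal over background could not be read from values set against the WT naive mean.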

Other observations

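RGS genes, which shut down signals from G protein-coupled receptors, were called in 7 of 9 cases, 5 higher and 2 lower, beside 17.4% of all genes; 1 was lower without the first or the second WM IMP or the third MW naive array and none without the first MW naive array, with a median difference of 1.28. Rgs1 stood at 3.89, 2.64 and 3.18 in the WM IMP arrays, against 0.59, 0.11 and -0.88 in the MW naive arrays (3.30 ± 0.36). Rgs2 differed by 2.85 ± 0.17. Rgs18 was low in the first WM IMP array, at 0.71, 3.04 and 3.43, against -0.17, -0.20 and -0.32 in the MW naive arrays (2.62 ± 0.53). Of 9 SLAM family and adaptor genes 4 were higher, beside 7.77% of all genes, and none was lower. Slamf7, a receptor of lymphocytes and plasma cells, stood at 4.26, 3.44 and 3.86 in the WM IMP arrays, against -0.53, -1.48 and -0.40 in the MW naive arrays (4.66 ± 0.29).

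Of 8 GIMAP genes, GTPases of lymphocyte survival, Gimap7 alone was called (12.5%, beside 17.4% of all genes), at 0.92, 0.59 and 0.90 in the WM IMP arrays, against -1.35, -1.59 and -1.47 in the MW naive arrays (2.27 ± 0.15). It lay above the WT naive level in the WM IMP cells and below it in the MW naive cells. Of 19 STAT and SOCS genes 5 were higher and 3 lower, beside 7.77% and 9.64% of all genes, with a median of -0.06. Jak1, a kinase of many cytokine receptors, differed by -1.02 ± 0.13, and Socs5 by 0.93 ± 0.16. The call of Jak1 was lost in the series matrix by mean of probe sets (-0.594, adjusted p 0.181). Socs3, an inhibitor of cytokine signalling, separated from the naive side, at 0.41, -0.11 and 0.02 in the WM IMP arrays, against 1.41, 1.0 and 0.72 in the MW naive arrays (-0.94 ± 0.20). Of 12 genes of MHC class I presentation 3 were higher and 1 was lower (none without any one MW naive array or the second or the third WM IMP array), with a median of 0.06 beside 2.52 for class II. H2-M3, a class I molecule for formylated peptides, differed by 1.14 ± 0.14.

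Of 22 heat shock and stress genes 5 were higher and 1 was lower (27.3%, beside 17.4% of all genes). The higher count was 2 without the first or the second MW naive array and with the 6 chimera arrays alone, and 3 without the third MW naive array; 2 were lower without the first WM IMP or the first MW naive array. Gadd45b differed by 2.79 ± 0.19 while its relative Gadd45a differed by -1.03 ± 0.24, a call lost with the hybridization covariate (adjusted p 0.137). Of 15 thymocyte and recent emigrant genes 6 were higher and 3 lower, beside 7.77% and 9.64% of all genes. Cd24a, a surface antigen of immature T cells that B cells carry too, differed by 2.31 ± 0.41 (1.96 with an adjusted p of 0.0598 with the hybridization covariate). Of 8 plasma cell markers 5 were higher, beside 7.77% of all genes, and none was lower; Jchain, the joining chain of secreted IgM and IgA, stood at 3.47, 2.72 and 3.29 in the WM IMP arrays, against -1.48, -0.27 and 0.82 in the MW naive arrays (3.47 ± 0.53).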
